A study of Mus musculus with 4 samples.

Results

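The genes described here set the G1 brake of the cell cycle: the D-type cyclins Ccnd1, Ccnd2 and Ccnd3, their kinases Cdk4 and Cdk6, the CIP/KIP inhibitors Cdkn1a and Cdkn1b, the INK4 inhibitors Cdkn2c and Cdkn2d, and Lockd, a long noncoding RNA whose gene lies just downstream of Cdkn1b. These 10 genes were taken by name from the 55341 gene symbols counted in cerebellar RNA, and all 10 had enough counts to be tested. They and the gene and marker lists below were chosen with earlier results of these data known. Counts of calls among them are therefore descriptions, not tests against all genes. RNA-seq was performed on cerebellar tissue of mice at postnatal day 14 (P14), and the comparison asked how loss of the histone H3 lysine 27 demethylase KDM6B in the granule neuron lineage altered gene expression. The Kdm6b-cKO group was 2 Atoh1-Cre; Kdm6b fl/fl mice, in which Cre deletes the exons for the catalytic JmjC domain. The WT group was 2 Kdm6b fl/fl littermates without Cre, so the floxed alleles were shared by both groups. Cre was driven by Atoh1, which is expressed in granule neuron precursors, while the tissue held every cell type of the cerebellum. Each library came from 1 mouse.

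In G1 a D-type cyclin binds CDK4 or CDK6, and the complex phosphorylates the retinoblastoma protein, which releases E2F factors and lets the cell enter S phase. INK4 proteins bind the kinases and keep the cyclin off, whereas p21 (Cdkn1a) and p27 (Cdkn1b) mainly block the CDK2 complexes that act next. In the developing cerebellum granule neuron precursors divide in the external granule layer under Sonic hedgehog, with D cyclins among its targets, and p27 accumulates as they stop dividing and become granule neurons.

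Across the group, 4 genes were higher in cKO cerebellum and 1 was lower. Ccnd2 (1.90-fold), Cdk4 (1.26-fold), Cdk6 (2.07-fold) and Lockd (4.38-fold, on few counts) were higher, and Cdkn1a was lower (0.792-fold). The other 5, Ccnd1, Ccnd3, Cdkn1b, Cdkn2c and Cdkn2d, did not pass. The test was edgeR's quasi-likelihood test across 16617 genes with an adjusted p threshold of 0.05, under which 4.04% of all tested genes were called, 1.87% as higher and 2.17% as lower in cKO. Both cKO libraries lay beyond both WT libraries for 6 of the 10 genes, and for 46.4% of all tested genes, so the absence of overlap alone did not set these genes apart. Levels are given as CPM, the reads of a gene relative to the TMM-scaled size of its library, in the order replicate 1 and replicate 2 of each genotype.

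**Figure D1:**
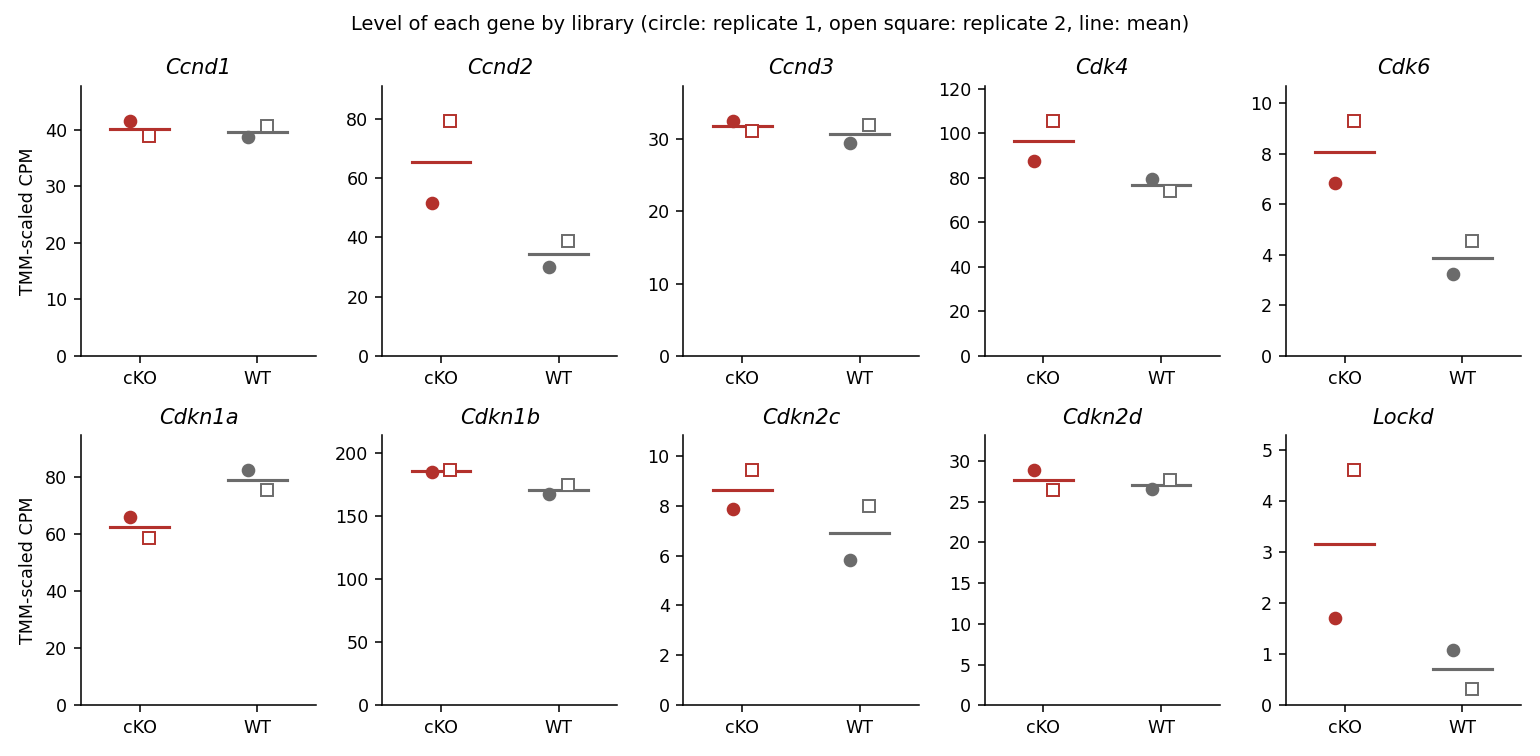
TMM-scaled CPM (vertical axis, from 0) of each of the 10 genes in the 2 cKO libraries (red, left) and the 2 WT libraries (grey, right), with replicate 1 as a circle, replicate 2 as an open square and the mean as a line. Ccnd2 lay at 51.7 and 79.2 CPM in cKO, above 29.9 and 38.7 CPM in WT, while Ccnd1 and Ccnd3 overlapped between genotypes.

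The libraries held 9892363 and 8811849 gene counts in cKO and 9358139 and 9421970 in WT. Kdm6b itself was at 127 and 119 CPM in cKO, against 154 and 154 CPM in WT (log2 fold change -0.33, SE 0.076, edgeR adjusted p = 0.0162). Markers of newborn granule neurons were called higher for 5 of 6 genes, with summed levels of 1847 and 2179 CPM in cKO against 1518 and 1630 CPM in WT. All 6 markers of mature granule neurons were called lower, with sums of 3297 and 2892 CPM in cKO against 4096 and 4221 CPM in WT, and the defining markers of granule neurons were thus abundant in every library. Of 8 tested markers of granule progenitors 2, Barhl1 and Sfrp1, were called higher, but 5 of the 8 had estimates below 0, Gli2 the lowest at -0.59, and the median log2 fold change was -0.02. Choroid plexus markers summed to 664 CPM in cKO 1, 22.4 CPM in cKO 2, and 12.5 and 10.8 CPM in WT. Xist and Y-linked genes showed the female pattern in 3 of the 4 libraries and the male pattern in WT 1, so only the fit without WT 1 compares libraries of one pattern, and in it Ccnd2 and Lockd were the members called. Without cKO 1 or without cKO 2 edgeR called 0 genes of the whole table (smallest adjusted p 0.237 and 0.443), although 2315 and 1718 genes had an unadjusted p under 0.05. No call below therefore held when either cKO library was left out.

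The region of Cdkn1b and Lockd is shown first, because these neighbours differed in their fold change. Cdkn1b lies at chr6:134920401-134925513 and Lockd at chr6:134929092-134956798 (GRCm38, both on the forward strand), and 3579 bp separate the end of Cdkn1b from the start of Lockd. The sequences below are the RefSeq promoter windows (GRCm38.p6, forward strand), running from 250 bases before to 50 bases after each start. Capitals mark matches to the GC box (GGGCGG) and the CCAAT box (CCAAT) on either strand.
Cdkn1b, chr6:134920151-134920450: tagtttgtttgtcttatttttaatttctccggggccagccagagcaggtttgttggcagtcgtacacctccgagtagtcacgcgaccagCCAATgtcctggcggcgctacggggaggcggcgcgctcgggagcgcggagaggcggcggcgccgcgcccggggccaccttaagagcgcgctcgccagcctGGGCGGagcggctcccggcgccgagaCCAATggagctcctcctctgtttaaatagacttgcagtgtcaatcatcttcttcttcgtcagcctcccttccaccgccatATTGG
Lockd, chr6:134928842-134929141: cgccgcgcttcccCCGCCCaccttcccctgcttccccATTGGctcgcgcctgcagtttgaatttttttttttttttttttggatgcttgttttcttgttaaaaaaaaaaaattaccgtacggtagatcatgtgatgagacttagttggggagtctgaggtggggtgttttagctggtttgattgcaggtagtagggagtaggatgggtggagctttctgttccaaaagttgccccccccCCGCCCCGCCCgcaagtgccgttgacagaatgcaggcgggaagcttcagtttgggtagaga

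The Cdkn1b window was 62.0% G and C and held 30 CpG dinucleotides, against 50.7% and 13 in the Lockd window. In Cdkn1b a GC box began 61 bases before the start and forward CCAAT boxes began 161 and 35 bases before it. In Lockd the GC boxes were all on the reverse strand, and the pair nearest the start overlapped each other by 1 base. A GC box was present in 35.7% and a CCAAT box in 37.4% of 32851 RefSeq promoter windows of this length. An E2F site, searched on both strands as TTTGGCGC, TTTCCCGC, TTTGCCGC or TTTCGCGC, was found in 2.26% of these windows and in the windows of 0 of the 8 members with an entry. These matches describe letters only, and Ccnd1 and Ccnd2 had no entry in the table.

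Ccnd2 (ENSMUSG00000000184, chr6:127125162-127152193, reverse strand) encodes cyclin D2, the D cyclin that granule neuron precursors need for normal expansion. It had 513 and 707 counts in cKO, against 277 and 358 in WT, or 51.7 and 79.2 CPM in cKO against 29.9 and 38.7 CPM in WT. Both cKO libraries were above both WT libraries, and cKO 2 was the highest by a wide margin. The log2 fold change was 0.93 (SE 0.15, 95% interval 0.61 to 1.25, edgeR adjusted p = 8.80e-04). Against the WT mean, the level was 1.51-fold in cKO 1 and 2.31-fold in cKO 2. The estimate was 1.21 without cKO 1, 0.60 without cKO 2, 0.76 without WT 1 and 1.13 without WT 2. Its sign stayed positive, as it must where both cKO libraries are above both WT libraries. DESeq2 called Ccnd2 when run on all genes (adjusted p = 2.62e-04) but not when run on the genes kept for edgeR (adjusted p = 0.152).

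Ccnd1 (ENSMUSG00000070348, chr7:144929931-144939925, reverse strand), the cyclin D1 gene and a classical target of Sonic hedgehog in these precursors, was at 41.5 and 38.9 CPM in cKO and 38.7 and 40.6 CPM in WT. The genotypes overlapped. The log2 fold change was 0.02 with a 95% interval of -0.21 to 0.25, so the interval does not reach the point estimate of Ccnd2 (edgeR adjusted p = 0.960). Ccnd3 (ENSMUSG00000034165, chr17:47505051-47599691, forward strand), which encodes cyclin D3, was at 32.5 and 31.0 CPM in cKO and 29.4 and 31.9 CPM in WT. It too overlapped between genotypes, with a log2 fold change of 0.05 and a 95% interval of -0.20 to 0.30 (edgeR adjusted p = 0.890).

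Ccnd2 took a larger share of the D cyclin counts in each cKO library than in either WT library. It contributed 41.1% of the D cyclin counts in cKO 1 (95% Wilson interval 38.4 to 43.9) and 53.1% in cKO 2 (50.4 to 55.8), against 30.5% in WT 1 (27.6 to 33.5) and 34.8% in WT 2 (31.9 to 37.8). The intervals of the cKO libraries lay above those of the WT libraries, but they cover counting error only. The mean share was 47.1% ± 8.47 in cKO and 32.6% ± 3.05 in WT (SD, n = 2 each), a difference of 14.5 points with an exact two-sided permutation p of 0.333, which is the smallest that 2 libraries against 2 can give. Levels per kilobase divide by the union of exons over all annotated transcripts of a gene. This was 4709 bp for Ccnd1, 9409 bp for Ccnd2 and 8775 bp for Ccnd3. Orders between genes depend on this choice of length, since the transcripts in use may be shorter. Per kilobase of exon the order in cKO was Ccnd1 (mean 8.54 CPM per kb), Ccnd2 (6.96) and Ccnd3 (3.62). In WT it was Ccnd1 (8.42), Ccnd2 (3.64) and Ccnd3 (3.49). In cKO 2 the Ccnd2 level of 8.42 CPM per kb was above the 8.25 of Ccnd1, whereas in WT the Ccnd2 levels of 3.18 and 4.11 CPM per kb were interleaved with the 3.36 and 3.63 of Ccnd3.

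**Figure D2:**
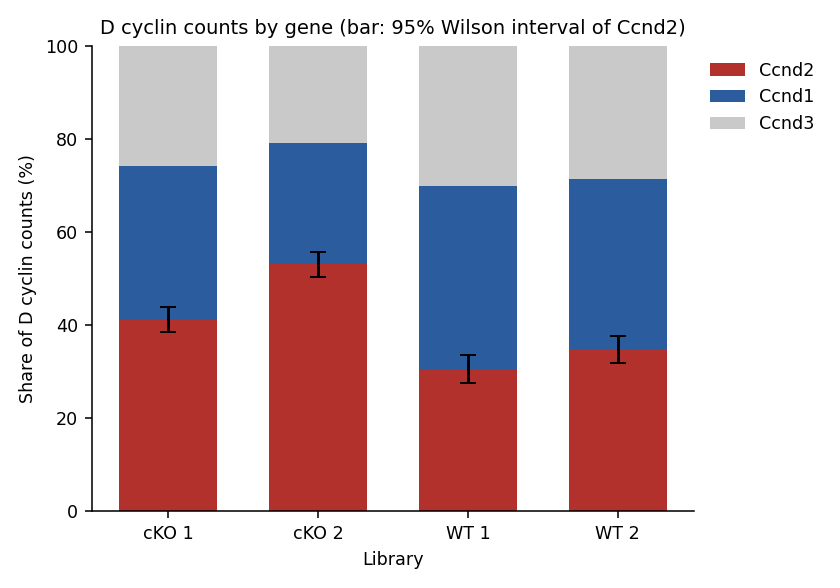
Share of all D cyclin counts (vertical axis, percent) that came from Ccnd2 (red), Ccnd1 (blue) and Ccnd3 (grey) in each library, with the 2 cKO libraries left of the 2 WT libraries. Black bars are 95% Wilson intervals of the Ccnd2 share, which reached 53.1% in cKO 2 and was lowest, at 30.5%, in WT 1.

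Antisense genes overlap Ccnd2. Gm43126, annotated on the opposite strand at the 3' end of Ccnd2, shares 372 of its 429 exonic bases with Ccnd2. It had 72 and 84 counts in cKO against 28 and 42 in WT (log2 fold change 1.13, SE 0.28, edgeR adjusted p = 0.0245). No source used here states whether the counting took strand into account, so reads of Ccnd2 and Gm43126 cannot be told apart over the shared bases. The counts of Gm43126 were small beside those of Ccnd2. 9330179D12Rik, antisense at the 5' end, had 1 and 6 counts in cKO against 1 and 2 in WT and was not tested. Exons of 7 of the 10 members share bases with another annotated gene. These partners were LTO1 for Ccnd1, Bysl for Ccnd3, Tspan31 for Cdk4, Gm17590 for Cdk6, AC167363.2 for Cdkn1a and Gm44238 for Lockd. LTO1, Bysl, Tspan31 and AC167363.2 were tested and did not pass (edgeR adjusted p from 0.302 to 0.798). Their log2 fold changes were 0.12, 0.27, 0.07 and -0.40. AC167363.2 shares 273 of its 1046 exonic bases with Cdkn1a and had 108 and 90 counts in cKO against 111 and 146 in WT. Gm17590 had 3 and 10 counts in cKO against 0 and 1 in WT and was not tested. Reads of these pairs likewise cannot be told apart over the shared bases.

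Of the kinases, Cdk4 (ENSMUSG00000006728, chr10:127063534-127067920, forward strand) had by far the higher level. It was at 87.7 and 105 CPM in cKO, against 79.3 and 74.1 CPM in WT. The genotypes did not overlap, though cKO 1 was only 1.14-fold above the WT mean, and cKO 2 was 1.37-fold above it. The log2 fold change was 0.33 (SE 0.091, 95% interval 0.14 to 0.52, edgeR adjusted p = 0.0441). The call was lost with upper-quartile scaling (adjusted p = 0.0641), limma-voom (0.0584), DESeq2 (0.155) and no filter on low counts (0.204), and when any 1 library was left out.

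Cdk6 (ENSMUSG00000040274, chr5:3341485-3531008, forward strand), the second D cyclin kinase, was scarce, with 68 and 83 counts in cKO against 30 and 42 in WT. This corresponded to 6.85 and 9.30 CPM in cKO and 3.24 and 4.54 CPM in WT. Both cKO libraries were above both WT libraries, with a log2 fold change of 1.05 (SE 0.28, 95% interval 0.46 to 1.63, edgeR adjusted p = 0.0383). The call was lost without a filter on low counts (adjusted p = 0.137), without either cKO library and without WT 1 (adjusted p = 0.288). Cdk6 made up 7.25% and 8.11% of the Cdk4 and Cdk6 counts in cKO, against 3.92% and 5.77% in WT. Per kilobase of exon, Cdk4 averaged 29.7 CPM per kb in cKO and 23.6 in WT, and Cdk6 averaged 0.577 in cKO and 0.278 in WT, so Cdk4 remained the main kinase transcript in both genotypes.

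Among the inhibitors, Cdkn1a (ENSMUSG00000023067, chr17:29090976-29100727, forward strand), which encodes p21 and is a target of p53, was the one that fell. It was at 66.0 and 58.6 CPM in cKO, against 82.2 and 75.4 CPM in WT. Both cKO libraries were below both WT libraries, with a log2 fold change of -0.34 (SE 0.091, 95% interval -0.53 to -0.15, edgeR adjusted p = 0.0404). The call was lost with library size alone as the scaling (adjusted p = 0.0576), without a filter on low counts (0.162), with DESeq2 (0.176), and without either cKO library or WT 1. None of 16 tested genes of p53 and its targets passed, and limma-voom called 0. DESeq2, which gave an adjusted p for 6, also called 0. An unadjusted edgeR p under 0.05 was held by 4 of the 16, and by 2710 of all 16617 tested genes. Named after their values were seen, the 4 were Phlda3 (log2 fold change -0.46), Bbc3 (-0.43), Sesn1 (-0.21) and Trp53inp1 (0.36). Of the 16 genes, 8 had estimates above 0 and 8 below. The median over the 16 was 0.01, against 0.0036 over all tested genes.

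Cdkn1b (ENSMUSG00000003031), which encodes p27, was the most abundant member per kilobase of exon, at 40.8 CPM per kb in cKO and 37.6 in WT. Its level was 185 and 186 CPM in cKO, against 168 and 174.5 CPM in WT. The cKO libraries lay just above the WT libraries without overlap. The log2 fold change was 0.12 (SE 0.071, 95% interval -0.03 to 0.27, edgeR adjusted p = 0.442), so an increase beyond 0.27 lies outside the interval. Cdkn1a made up 26.3% and 23.9% of the Cdkn1a and Cdkn1b counts in cKO, against 32.9% and 30.2% in WT.

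The INK4 genes did not pass. Cdkn2c (ENSMUSG00000028551, chr4:109660876-109667189, reverse strand), which encodes p18, was at 7.86 and 9.41 CPM in cKO and 5.82 and 7.99 CPM in WT. Here cKO 1 lay below WT 2, and the interval of the log2 fold change was wide, from -0.18 to 0.82 around 0.32 (edgeR adjusted p = 0.562). Cdkn2d (ENSMUSG00000096472, chr9:21288410-21291407, reverse strand), which encodes p19 of the INK4 family and is expressed in postmitotic neurons, was at 28.8 and 26.4 CPM in cKO and 26.5 and 27.6 CPM in WT. The genotypes overlapped, and the log2 fold change was 0.03 (95% interval -0.23 to 0.29, edgeR adjusted p = 0.946). The remaining genes of these inhibitor families were named after their values were seen. Cdkn1c (p57) had 89 and 79 counts in cKO and 74 and 110 in WT. It was tested and did not pass (log2 fold change -0.16, edgeR adjusted p = 0.802). Cdkn2b had 10 and 13 counts in cKO and 7 and 9 in WT. Cdkn2a had 0 and 1 in cKO and 0 in each WT library. Neither Cdkn2b nor Cdkn2a had enough counts to be tested.

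Summed per kilobase, the D cyclins amounted to 18.0 and 20.2 CPM per kb in cKO, against 14.8 and 16.4 in WT. The CIP/KIP inhibitors Cdkn1a and Cdkn1b amounted to 59.3 and 57.4 CPM per kb in cKO, against 60.0 and 59.5 in WT. The INK4 inhibitors Cdkn2c and Cdkn2d amounted to 21.2 and 20.3 in cKO, against 19.0 and 20.5 in WT. On this measure, which depends on the exon lengths used, the transcripts of these inhibitors exceeded those of the D cyclins in every library. The ratio of D cyclins to these inhibitors was 0.224 and 0.260 in cKO, against 0.187 and 0.204 in WT, and it was given as a description because the ratio was not tested.

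**Figure D3:**
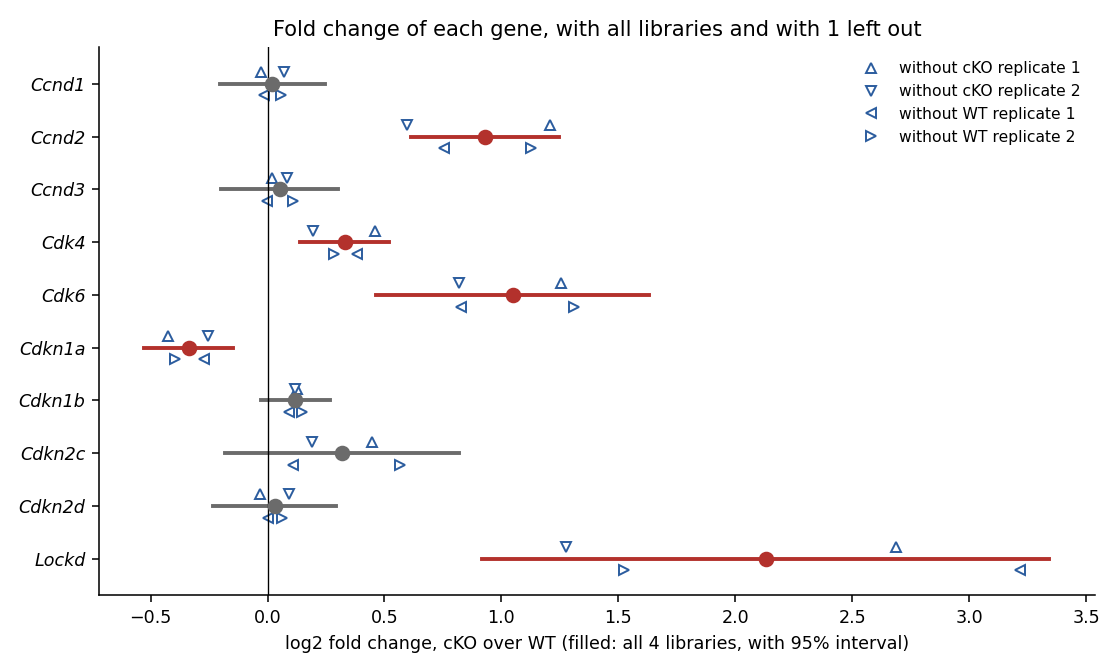
Log2 fold change of cKO over WT (horizontal axis) for each of the 10 genes, with all 4 libraries as a filled circle and its 95% interval, red where the adjusted p was under 0.05, and with 1 library left out as open triangles. In all 4 such fits Ccnd2, Cdk4, Cdk6 and Lockd were above 0 and Cdkn1a was below 0. The uncalled Cdkn1b and Cdkn2c also stayed above 0, while estimates of Ccnd1, Ccnd3 and Cdkn2d fell on both sides of 0. Where the genotypes do not overlap, leaving out 1 library leaves the sign as it was, so a constant sign does not set the called genes apart.

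Lockd (ENSMUSG00000098318) had the largest fold change of the group and the fewest counts. In mouse erythroid cells the DNA at its 5' end acts as an enhancer of Cdkn1b. There were 17 and 41 Lockd counts in cKO, against 10 and 3 in WT. In CPM these were 1.71 (95% exact Poisson interval 0.998 to 2.74) in cKO 1 and 4.59 (3.30 to 6.23) in cKO 2, against 1.08 (0.517 to 1.98) in WT 1 and 0.324 (0.0668 to 0.947) in WT 2. The groups did not overlap, but the counting intervals of cKO 1 and WT 1 did. In the fit the log2 fold change was 2.13 (SE 0.58, 95% interval 0.92 to 3.34, edgeR adjusted p = 0.0420). As a ratio of counts scaled to library size, both cKO libraries over both WT libraries gave 4.39 (counting interval 2.38 to 8.73), cKO 1 over WT 1 gave 1.59 (0.687 to 3.88) and cKO 2 over WT 2 gave 14.2 (4.52 to 71.6). The fold change therefore varied several-fold with the pair of libraries compared. It was 2.69 on the log2 scale without cKO 1, 1.27 without cKO 2, 3.22 without WT 1 and 1.52 without WT 2, and the call was lost without cKO 1, without cKO 2, without WT 2 (adjusted p = 0.283), with limma-voom (adjusted p = 0.0760) and without a filter on low counts (adjusted p = 0.190).

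Counts of Lockd were 0.916% and 2.40% of the combined Lockd and Cdkn1b counts in cKO, against 0.639% and 0.185% in WT. The difference at Lockd was thus seen beside a Cdkn1b level whose interval ended at 0.27 on the log2 scale. Of the 8 other tested genes within 250 kb of Cdkn1b, 0 passed edgeR's test. An unadjusted p under 0.05 was held by 1 of them, and by 2710 of all 16617 tested genes. The 1 neighbour was Crebl2, with a log2 fold change of -0.39 (edgeR adjusted p = 0.172). Values of the others on the log2 scale were -0.28 for Gpr19, -0.27 for Dusp16, -0.14 for Borcs5, -0.03 for Ddx47, 0.16 for Hebp1, 0.21 for Apold1 and 0.54 for 2810454H06Rik. Gm44238, antisense over the start of Lockd and sharing 160 of its 353 exonic bases with it, had 9 and 8 counts in cKO and 8 and 3 in WT and was not tested.

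**Figure D4:**
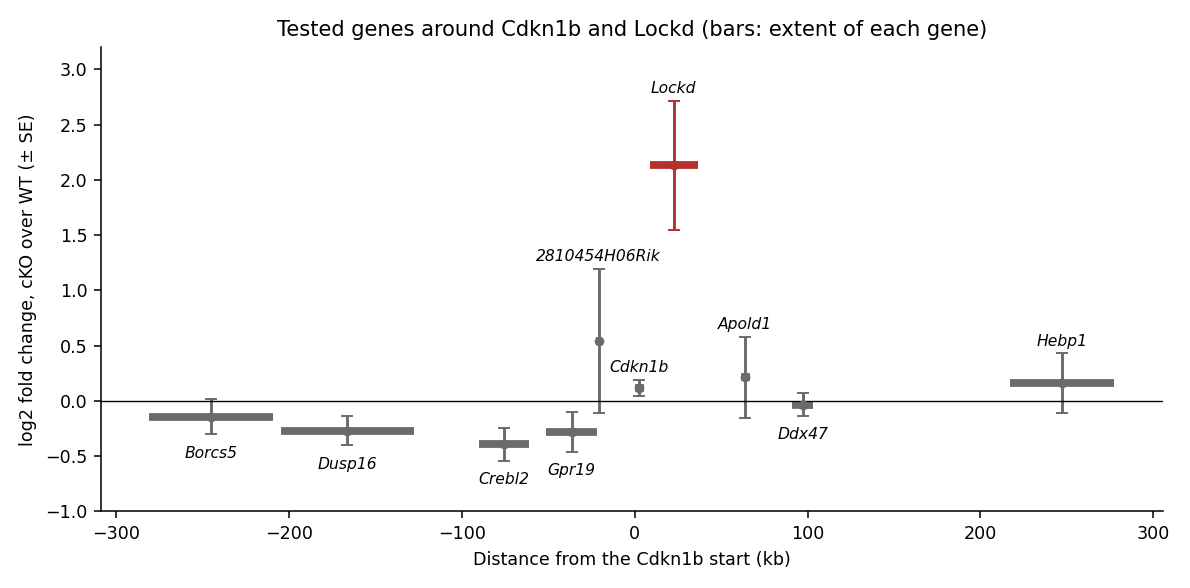
Log2 fold change of cKO over WT with its SE (vertical axis) for tested genes, placed by distance in kb from the start of Cdkn1b (horizontal axis), with thick bars for the extent of each gene. Lockd, at 2.13, is the gene with an adjusted p under 0.05, and Cdkn1b beside it lies at 0.12.

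The members did not share one pattern over the 4 libraries. Ccnd2, Cdk6 and Cdkn1b ran in the order cKO 2, cKO 1, WT 2, WT 1 from high to low. This order was held by 7.37% of all tested genes and by 160 (51.6%) of the 310 genes called higher in cKO. These shares are not like for like, since a call as higher already favours orders with both cKO libraries first. Ccnd2 and Cdk6 are themselves among the 310. The summed newborn granule neuron markers had the same order as Ccnd2. So did the summed mitosis genes, at 195 and 331 CPM in cKO against 150 and 179 CPM in WT. Whether the number of immature cells in each piece of tissue has a part in the Ccnd2 and Cdk6 values was not tested, and in tissue RNA more cells of a type and more RNA per cell cannot be told apart. Cdk4 and Lockd had WT 1 above WT 2, and Cdkn1a ran in the reverse order of Ccnd2.

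The genes nearest to each called member, by Euclidean distance between log2 levels centred over the 4 libraries, are a description over 4 libraries without a test. For Ccnd2 they were Barhl1, a homeobox gene of granule neuron precursors (distance 0.0735), the axon guidance gene Draxin (0.104), Ctxn1 (0.137), the netrin receptor gene Dcc (0.139) and the somatostatin receptor gene Sstr2 (0.149), out of 11056 genes. Barhl1 was at 63.3 and 94.9 CPM in cKO against 37.4 and 45.1 CPM in WT, closely parallel to Ccnd2. For Cdk6 they were Draxin (0.0821), the anaphase-promoting complex activator Cdc20 (0.101), Gm43126 (0.116), 4930533K18Rik (0.117) and Lsp1 (0.122), out of 16470 genes. Gm43126 shares most of its exonic bases with Ccnd2, and reads of the pair cannot be told apart there. The nearest to Cdk4 were Peli1, Trp53inp1, Bclaf3, Grm7 and Gm9752, at 0.0189 to 0.0401. The nearest to Cdkn1a were Oser1, Slc31a2, Cetn2, Arsg and Tmc7, at 0.0345 to 0.0399. For Lockd the nearest, 3110009E18Rik, was at 0.440, and Hsd11b2, Gm11748, Tmem267 and Gm28512 were at 0.750 to 0.772. Lockd had 17 and 41 counts in cKO and 10 and 3 in WT. Its distances therefore carry more counting error and cannot be set against those of the other members.

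Beyond the group, 27 other genes of G1 and S entry were tested, of which 2 were called higher and 0 lower. These were E2f1, whose protein is held by the retinoblastoma protein until D cyclin kinases act, and Cdk2, the kinase of S phase entry. E2f1 was at 18.4 and 20.9 CPM in cKO, against 10.1 and 11.99 CPM in WT (log2 fold change 0.83, SE 0.17, edgeR adjusted p = 0.00630). Cdk2 was at 9.27 and 6.72 CPM in cKO, against 3.34 and 3.46 CPM in WT (log2 fold change 1.24, SE 0.28, edgeR adjusted p = 0.0135). Neither gene overlapped between genotypes, and limma-voom called both, while DESeq2 gave neither an adjusted p. An unadjusted edgeR p under 0.05 was held by 6 of the 27, all higher in cKO, and by 2710 of all 16617 tested genes. The median log2 fold change over the 27 genes was 0.02. Of 14 tested genes for the turnover of D cyclins and p27, 1 was called lower, the cyclin D1 deubiquitinase gene Usp2, at 56.4 and 43.9 CPM in cKO against 67.6 and 63.8 CPM in WT (edgeR adjusted p = 0.0478; DESeq2 adjusted p = 0.179). None of 8 FOXO and antiproliferative factors passed (1 at an unadjusted p under 0.05; 0 called by limma-voom, or by DESeq2, which gave an adjusted p for 5), with a median of -0.13.

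Genes used later in the cycle were examined with the same fit. Of 28 tested DNA replication genes, 1 was called higher, Uhrf1, which recruits the maintenance methyltransferase DNMT1 to newly replicated DNA. It was at 6.15 and 12.3 CPM in cKO, against 3.88 and 4.32 CPM in WT (edgeR adjusted p = 0.0340). The call was lost with limma-voom (adjusted p = 0.0785), which called 0 genes of this list. DESeq2 also called 0, but it gave an adjusted p for only 5 of the 28 genes and none for Uhrf1. The list's median log2 fold change was 0.36 with all libraries and 0.04 without cKO 2. Of 28 tested mitosis genes, 6 were called higher and 0 lower, among them the kinetochore gene Cenpf, the topoisomerase gene Top2a, the cyclin gene Ccnb1 and Cdc20. In this list limma-voom called 4 genes and DESeq2 called 1, Top2a, with an adjusted p for 2 of the 28. Top2a, for example, was at 21.5 and 40.3 CPM in cKO, against 13.7 and 14.9 CPM in WT. The median of this list was 0.66 with all libraries, 0.12 without cKO 2 and 0.97 without cKO 1, so the level of the mitosis list rested largely on cKO 2. These medians stand beside 0.0036 for all tested genes. With all libraries, 6 of the 28 replication genes and 15 of the 28 mitosis genes had an unadjusted edgeR p under 0.05. Over all 16617 tested genes 2710 did.

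**Figure D5:**
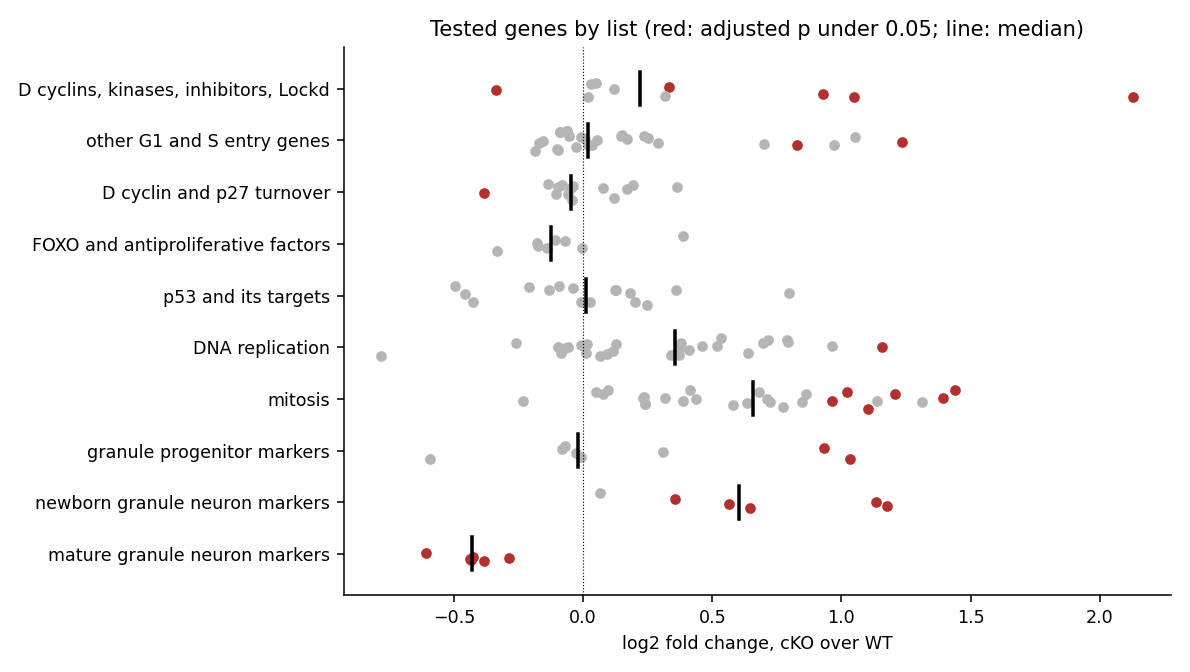
Log2 fold change of cKO over WT (horizontal axis) for every tested gene of each list, 1 list per row, with genes past an adjusted p of 0.05 in red, the others in grey and the list median as a black line. The mitosis list had a median of 0.66, the other G1 and S entry genes had a median of 0.02, and all 6 markers of mature granule neurons were below 0.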

How the data were processed

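Cerebellar poly(A) RNA of 2 cKO and 2 WT mice at P14 was sequenced as 150 bp pairs. Per the methods and the submitters' processing notes, the authors used Trimmomatic 0.38 for trimming, STAR 2.7.2b for alignment to GRCm38 and HTSeq for counting over exons. The deposited values were whole-number counts, not normalised. Entries that name no gene (48.8% to 49.6% in no feature, 0.805% to 0.917% ambiguous) were left out of library sizes. Replicate numbers follow the titles, since the descriptions give the number 1 to every sample.

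Genes were filtered with filterByExpr, scaled by TMM (factors 0.986 to 1.02) and tested two-sided with edgeR 4.0.16 in R 4.3.3, with Benjamini-Hochberg adjustment over 16617 genes. Replicates were distinct libraries, with a chi-square per degree of freedom of 4.04 between the cKO pair and 3.72 between the WT pair. The p-values of edgeR combine the spread between 2 mice per group with a variance trend fitted over all tested genes. They do not rest on the spread of the gene itself alone. Counting intervals cover counting error only. Alternatives were DESeq2 1.42.0, which the study names, limma-voom (limma 3.58.1), other scalings and filters, a replicate block and leaving out each library. Coordinates and exon lengths came from GENCODE M21, which matched all 55341 symbols, and promoter windows from RefSeq.

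The members and gene lists were chosen with earlier results of these data known. Genes were named by rule, apart from those named after their values were seen. The rule took all members, Kdm6b and up to 4 genes per list past the threshold with the smallest p. It also took annotated neighbours within 10000 bp (250000 bp for Cdkn1b and Lockd) and the 5 genes nearest in pattern to each called member. Those 5 had a mean CPM of at least 10, or 1 for a member under 10, and the pseudocount was 0.5. In marker lists of other cells, Olig1 (oligodendrocyte lineage), Slc1a3 and Gdf10 (astroglia) and Ppp1r17 (Purkinje cells) were called lower and Ttr and Kl (choroid plexus) higher, both of which limma-voom did not call. Lists for microglia, endothelium, fibroblasts and blood had 0 calls by edgeR, limma-voom and DESeq2. DESeq2 gave an adjusted p for 1 of 5 tested microglia, 4 of 6 endothelium, 3 of 4 fibroblast and 2 of 4 blood genes. In these lists 1 gene, a fibroblast marker, had an unadjusted edgeR p under 0.05. A result that the naming rule takes is not reported here.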

Additional observations from a re-analysis of the deposited data

How the results depend on the processing

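With 2 mice per group, calls near the threshold were fragile, and low counts limit Lockd and Cdk6 most. Against 310 genes higher and 361 lower in cKO, library size alone as the scaling gave 434 and 292. Among the called genes, the share that was higher rose by over 10 points. This goes with a shift of the median of all genes by 0.03. Upper-quartile scaling moved the balance the other way, with 239 higher and 407 lower. No filter on low counts gave 71 and 106, DESeq2 gave 148 and 188, and DESeq2 on the genes kept for edgeR, added after the data were seen, gave 137 and 183. With a replicate block the counts were 549 and 581. The replicate numbers share only a name (the correlation of same-numbered deviations was 0.042), and with the block the members called were 4 higher and 1 lower. Leaving out 1 library gave 0 to 263 genes higher and 0 to 244 lower.

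Of the members, 4 were called higher and 1 lower. The number called higher was 1 without the filter and with DESeq2, 2 with limma-voom, 0 with DESeq2 on the genes kept for edgeR (5 at an unadjusted p under 0.05), and 0 to 2 with 1 library left out. The number called lower was 0 with library size alone, without the filter and with both DESeq2 runs, and 0 to 1 with 1 library left out. DESeq2 gave no adjusted p for Cdk6, Cdkn2c and Lockd. With 1 library left out, Ccnd1 ranged from -0.0281 to 0.0682, Ccnd3 from -0.0042 to 0.11 and Cdkn2d from -0.0342 to 0.0916 on the log2 scale, and none of these was called. The cause of these changes was not tested.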
